A study of Mus musculus with 6 samples.

Results

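Chromatin accessibility was described in 3 genomic windows set around the mineralization genes Dmp1, Ibsp, Mepe and Spp1 (the SIBLING cluster), Alpl and Sp7 in differentiating ATDC5 cells. The members were all listed ATAC-seq peaks whose summit lay in chr5:104400000-104650000 (SIBLING cluster), chr4:137400000-137600000 (Alpl) or chr15:102215000-102325000 (Sp7), in GRCm39. They numbered 1525 of 1455940 listed peaks over 6 libraries. ATAC-seq uses the Tn5 transposase to insert adapters into open chromatin. ATDC5 is a mouse teratocarcinoma-derived line labelled as pre-chondrocytes. The groups were Day0 (labelled control), Day3 and Day10 (labelled differentiation), with 2 libraries each, described as biological replicates and sequenced as single-end reads. All groups were of this 1 line. The protocol given for the 3 times spots cells as dense droplets and then adds medium holding beta-glycerophosphate and L-ascorbate-2-phosphate; the labels do not say whether Day0 cells had received it.

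Mineralization of cartilage and bone needs enzymes that free phosphate and matrix proteins that start or restrain crystal growth. The SIBLING proteins are acidic, secreted phosphoproteins encoded side by side. Dmp1, made by osteocytes and odontoblasts, takes part in phosphate balance, and Ibsp, bone sialoprotein, binds and nucleates apatite. Mepe releases peptides that restrain mineralization, and Spp1, osteopontin, binds integrins and restrains crystal growth. Alpl, tissue-nonspecific alkaline phosphatase, splits the inhibitor pyrophosphate and also cleaves beta-glycerophosphate. Sp7, osterix, is a zinc finger factor that osteoblasts need and that hypertrophic chondrocytes also express. In RefSeq's gene order for GRCm38.p6, the cluster runs Dspp, Dmp1, Ibsp, Mepe, Spp1, Pkd2, while Alpl lies between Rap1gap and Ece1, and Sp7 between Aaas and Sp1.

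The peak lists were read as GRCm39, and no annotation or genome of that build was used, so no peak is assigned to a promoter, exon or intron. That each gene lies inside its window was not tested, and Dmp1, at one end of the cluster, may lie below the lower end of the SIBLING window and so outside it. RefSeq promoter sequences of GRCm38.p6, from 250 bases before to 50 after a gene's start, matched 5 of the 6 genes in 8 windows. Of these, 4 are shown because they show the sequence around the starts of the genes that the windows were set for. Their positions are in GRCm38.p6 and cannot be set beside the peaks. Capitals mark matches, on either strand, to RUNX (AACCACA or TGTGGT, which overlap), AP-1 (TGANTCA), TEAD (GGAATG), SOX (ACAATG), homeobox (TAATTA), GC box (GGGCGG), E-box (CAGCTG) and TATA box (TATAAA) motifs.
Ibsp, chr5:104299037-104299336, plus strand: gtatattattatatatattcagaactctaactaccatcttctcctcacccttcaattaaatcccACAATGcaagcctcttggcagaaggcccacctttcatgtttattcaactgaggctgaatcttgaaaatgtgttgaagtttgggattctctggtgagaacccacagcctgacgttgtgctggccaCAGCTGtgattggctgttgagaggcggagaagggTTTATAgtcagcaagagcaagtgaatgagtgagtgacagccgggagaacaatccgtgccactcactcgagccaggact
Mepe, chr5:104325079-104325378, plus strand: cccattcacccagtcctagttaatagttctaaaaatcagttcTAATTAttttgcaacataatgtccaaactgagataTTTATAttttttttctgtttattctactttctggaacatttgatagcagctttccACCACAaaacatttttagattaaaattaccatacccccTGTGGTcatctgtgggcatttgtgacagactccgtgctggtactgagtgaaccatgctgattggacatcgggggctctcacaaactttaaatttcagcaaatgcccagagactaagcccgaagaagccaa
Spp1, first start, chr5:104434861-104435160, plus strand: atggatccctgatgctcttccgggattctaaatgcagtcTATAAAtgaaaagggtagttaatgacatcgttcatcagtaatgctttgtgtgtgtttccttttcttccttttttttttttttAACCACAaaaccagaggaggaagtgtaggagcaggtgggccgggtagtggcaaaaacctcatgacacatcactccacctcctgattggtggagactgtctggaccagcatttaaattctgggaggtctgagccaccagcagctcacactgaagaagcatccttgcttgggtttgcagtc
Alpl, first start, chr4:137796335-137796634, minus strand: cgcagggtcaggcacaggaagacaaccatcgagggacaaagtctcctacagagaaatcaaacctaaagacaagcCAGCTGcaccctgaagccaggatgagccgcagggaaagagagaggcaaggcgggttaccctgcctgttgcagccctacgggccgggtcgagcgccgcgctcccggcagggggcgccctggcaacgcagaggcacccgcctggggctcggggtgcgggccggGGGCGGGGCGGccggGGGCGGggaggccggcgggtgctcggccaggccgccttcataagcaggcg

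The promoters differed in composition: G and C made up 46.3% of the bases for Ibsp, 38.7% for Mepe, 45.3% for the first and 36.7% for the second Spp1 start, and 70.0% for the first and 54.3% for the second Alpl start, against a median of 53.0% over 32544 promoter windows. The RUNX motif AACCACA was found once for Spp1 and once at the second Dmp1 start, and 5.29% of all promoter windows held it. The shorter RUNX form TGTGGT was found in 3 of the 8 windows, those of Mepe, with 2 matches, Spp1 and the second Dmp1 start, against 16.7% of all windows. A TATA box was found in the windows of Ibsp, Mepe, Spp1 (first start) and Alpl (second start), against 13.6% of all windows. The first Alpl start held 3 GC box matches and no other of the 8 windows held one, against 35.9% of all windows. E-box matches were found in 4 of the 8 windows and SOX and homeobox matches in 2 each, against 16.4% of all windows for the E-box, 12.4% for SOX and 5.29% for homeobox. No AP-1 match was found, against 7.79% of all windows, and no TEAD match, against 14.6%. A match is a description of letters and not a bound site.

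Each library had its own peak list, and each peak carries the authors' fold over the background of its library beside significance values. The Day0 lists held 164642 and 164960 peaks, the Day3 lists 177751 and 177111, and the Day10 lists 381376 and 390100. Total read numbers were not used here. The fold took whole steps, from which the pileup, the number of extended reads over the summit, was recovered. The highest pileup of a list was 162 and 166 at Day0, 171 and 174 at Day3, but 136 and 144 at Day10, where the highest fold was 65.7 and 67.4. In regions strong in all 6 libraries, the median fold was 35.0 and 35.2 in the libraries of Day0, 31.7 and 32.3 in those of Day3, and 29.7 and 30.7 in those of Day10, shifts of -0.13 at Day3 and -0.22 at Day10 on the log2 scale. Within a day, the mean squared difference between the pileups of the libraries was 0.233 to 0.43 of what Poisson sampling gives over the member regions, and 0.314 to 0.372 over all regions. The labels call them independent biological replicates, and whether so small a spread stands for that between cultures was not tested, so both values are printed and no error is computed. An exact test of 2 against 2 libraries cannot go below a two-sided p of 0.333, and no p is given. Peak names contain the word lysis in the lists of Day3 and of no other day, and the Day10 lists alone have a smallest peak width of 68 and 72 bases, against 87 to 90 bases in the others, so the day cannot be told apart from any difference in how its libraries were handled.

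The 3 windows held similar numbers of peaks at Day0 and Day3 and more at Day10. The Day0 lists held 166 and 170 member peaks, those of Day3 168 and 169, and those of Day10 425 and 427. At Day10 the SIBLING window held 178 and 195 peaks, the Alpl window 144 and 133 and the Sp7 window 103 and 99. At Day3 the SIBLING window held 67 and 70, the Alpl window 59 and 55 and the Sp7 window 42 and 44. At Day0 the SIBLING window held 65 and 67, the Alpl window 59 and 60 and the Sp7 window 42 and 43. The Day10 number was 2.54 times that of Day0, and the whole lists differed by 2.34 times. Among the 50000 strongest peaks of each library the ratio was 1.15, with 64 and 67 member peaks at Day10, against 58 and 56 at Day0. Most Day10 member peaks were weak: 73.2% and 72.1% ranked beyond 100000, as did 73.7% and 74.3% of the whole Day10 lists. At Day0, 36.7% and 38.2% of the member peaks ranked beyond 100000. Of the Day10 member peaks, 30.1% and 29.7% overlapped a listed peak in both Day0 libraries, against 32.8% and 31.9% of the whole lists. Of the Day0 member peaks, 88.6% and 88.2% overlapped a listed peak in both Day10 libraries, against 79.0% and 78.9% of the whole lists.

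**Figure D1:**
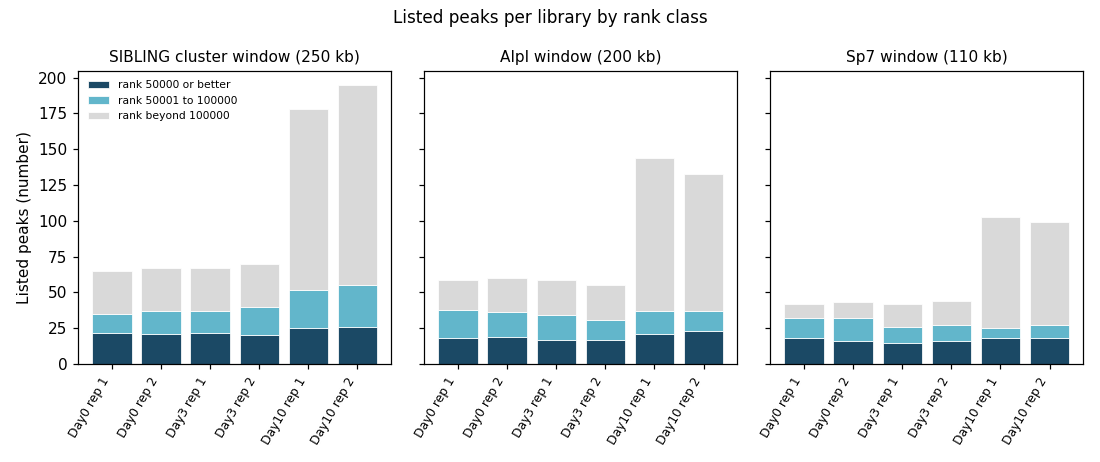
Stacked bars give the number of listed peaks (vertical axis) in each of the 6 libraries for the SIBLING cluster, Alpl and Sp7 windows, split by rank within the library. The Day10 bars are taller mainly through peaks that rank beyond 100000.

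To compare days at equal numbers of peaks, peaks were ranked within each library. Regions reached 250 bases to either side of the summits of the 50000 strongest peaks of each library, and where they would overlap the better-ranked summit kept its region, which gave 78698 regions over the genome and 92 in the windows: 38 in the SIBLING window, 29 at Alpl and 25 at Sp7. Between 2 days, gained means a rank within the 50000 strongest in both later libraries and a rank beyond 100000, or no listed peak, in both earlier ones. Lost is the reverse of this, and kept means a rank within the 50000 strongest in all 4. A call had to hold both for peaks with a summit in the region and for any overlapping peak. Between 76 and 84 of a library's member peaks had their summit in one of the 92 regions, and the weaker ones are covered by the counts above alone. Regions entered through different days: 34 had a strong summit on all 3 days, where 39.4% of all regions did, and 22 at Day10 alone, where 19.9% did. A strong summit at Day0 alone was found in 6, where 10.8% of all had it, and at Day3 alone in 3, where 7.43% had it. There were 12 with one at Day0 and Day3, where 14.0% of all had it, 6 at Day3 and Day10, where 6.05% had it, and 9 at Day0 and Day10 (9.78%), where 2.36% had it. Most of these 9 were still covered at Day3 by a peak among the 50000 strongest, whose summit lay in the neighbouring region. An example is chr5:104607177-104607677. Those that entered through 1 day had to differ in where strong summits lay, but not in fold. For example, chr5:104606627-104607127 entered through Day3 alone, yet a peak among the 50000 strongest covered it in each of the 6 libraries. Of the 92 regions, 22 shared a peak with a neighbouring region in at least 1 library and then carry the same value.

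The windows gained regions at Day10 against Day0 in about the proportion seen over the genome. Lost regions made up a lower share than over the genome by this rule, a difference of few regions given without a test. When only peaks with a summit in the region counted, 9 were lost (9.78%), near the 10.0% of all regions. Of the 92 regions, 10 were gained (10.9%), where 10.7% of all regions were gained. There were 5 lost regions (5.43%), where 7.99% of all regions were lost, and 29 kept, where 34.9% of all were kept. The other 48 met none of these rules. By a rule on the fold, with the lowest fold of one day at least 2 times the highest of the other, 17 were gained (18.5%), where 14.7% of all regions were, and 6 lost (6.52%), where 11.8% were. The SIBLING window held 6 gained and 3 lost regions, the Alpl window 3 and 1, and the Sp7 window 1 and 1. These are bulk cultures, so a change in the share of cells with an open region and a change within each cell cannot be told apart.

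In the SIBLING window, all 6 gained regions lay between 19.9 and 135.0 kb from its lower end, and the 3 lost regions between 140.9 and 208.9 kb. This split holds for the calls by rank and not for the folds of other regions. By the rule on the fold, the region at 154.8 kb was gained too, with 8.7 in both Day0 libraries and 22.5 and 20.9 at Day10. The region at 140.9 kb was not lost by that rule. The fold fell from day to day at 92.6 and 106.7 kb, among others, and rose from day to day at 154.8 and 182.9 kb, among others. The strongest gained region at Day10 was chr5:104419651-104420151. It had no listed peak at Day0, a fold of 5.6 and 4.4 at Day3, and of 29.7 and 32.5 at Day10. The Day10 values stood on pileups of 61 and 69 reads, with exact 95% Poisson intervals of 46.7 to 78.4 and 53.7 to 87.3. The Day3 pileups of 9 and 7 had intervals of 4.12 to 17.1 and 2.81 to 14.4. These intervals cover counting error only, and the rule for gained regions already sets a low count at one day against a high one. The region chr5:104450891-104451391 was listed on no library before Day10, where its fold was 20.1 and 20.5.

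The neighbouring regions chr5:104499933-104500433 and chr5:104503730-104504230 were likewise not listed at Day0. The first had a fold of 10.6 and 9.5 at Day3 and of 22.1 and 26.0 at Day10. For the second the fold was 9.5 and 8.3 at Day3 and 22.1 and 24.2 at Day10. In both, each Day10 library was above each Day3 library. At chr5:104519040-104519540 the fold was 6.4 in both Day0 libraries, then 12.2 and 12.8 at Day3 and finally 20.1 and 20.0 at Day10, a ratio of 3.14 for Day10 over Day0. At chr5:104534776-104535276 it was 7.0 and 5.8 in the libraries of Day0, 8.9 and 12.2 in those of Day3, and 21.6 and 21.4 in those of Day10, a ratio of 3.37. Of these 6 regions, the one at 51.1 kb alone had no listed peak at Day3.

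The lost regions of the SIBLING window had lower fold at Day3 and again at Day10. At chr5:104599983-104600483 the fold was 24.5 and 24.8 in the libraries of Day0, 14.5 and 10.0 in those of Day3, and 4.3 and 3.7 in those of Day10, a ratio of 0.16 for Day10 over Day0. This was the lowest such ratio among member regions listed in all 4 libraries. At chr5:104608644-104609144 it was 23.9 and 25.4 in the libraries of Day0, 10.0 and 10.6 in those of Day3, and 8.6 and 7.4 in those of Day10. At chr5:104540610-104541110 it was 16.9 and 22.5 in the libraries of Day0, 15.6 and 13.9 in those of Day3, and 8.2 and 9.3 in those of Day10. The folds of the groups did not overlap in any of these 3 regions, which the rule for lost regions fixes in advance between Day0 and Day10. In the last one the Poisson intervals of Day0 and Day10 did overlap. They were 18.6 to 40.5 for the 28 reads of Day0 replicate 1 and 11.4 to 29.7 for the 19 reads of Day10 replicate 2. For the last one the Day0 rank in replicate 1 was 49754, close to the limit, and the call was not made when tied peaks were given their mean rank. The region at 200.2 kb lies beside a stronger one, chr5:104600921-104601421, which had a fold of 47.2 and 52.0 in the libraries of Day0, 37.8 and 40.6 in those of Day3, and 21.6 and 22.8 in those of Day10. That neighbour stayed within the 50000 strongest on every day and was kept.

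**Figure D2:**
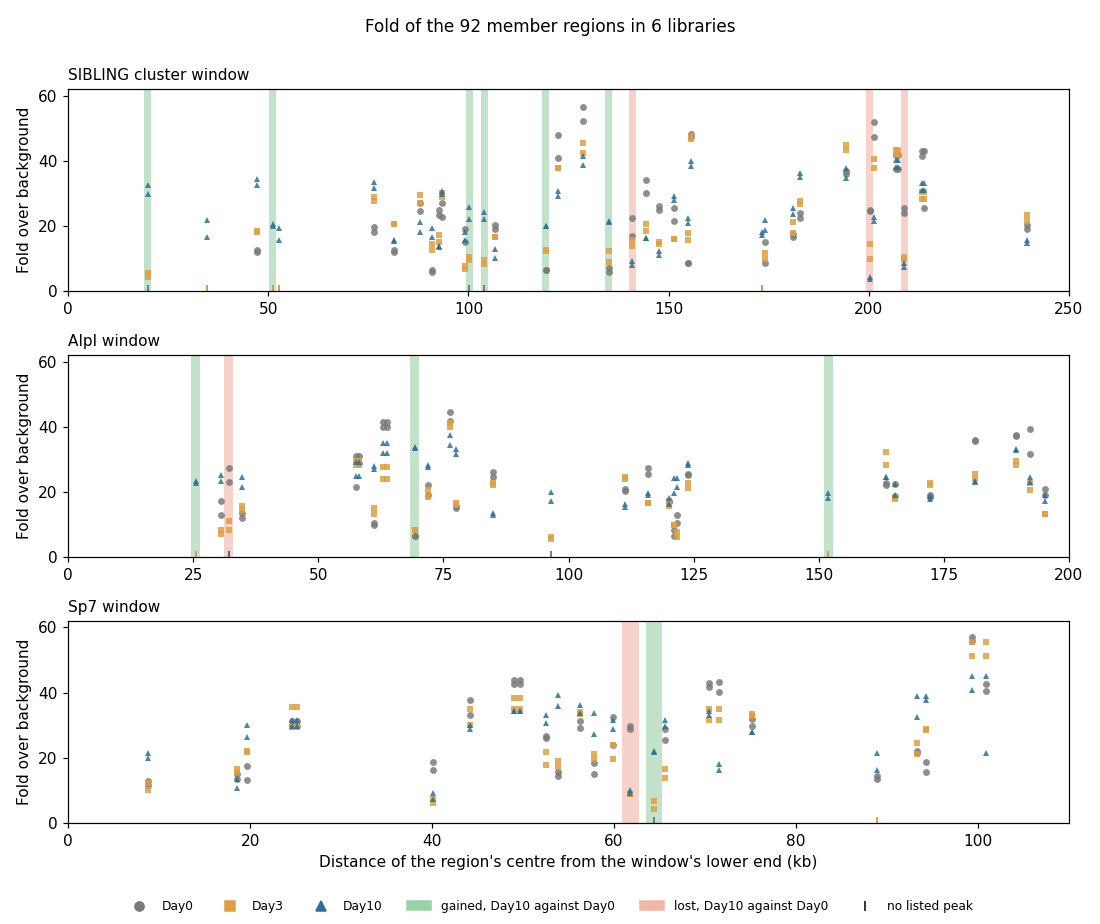
Each symbol is the authors' fold over background of a member region in 1 library (vertical axis), placed by its distance in kb from the lower end of the window, with Day0, Day3 and Day10 in different symbols and ticks at the base for libraries without a listed peak. Shaded strips mark the 10 regions gained and 5 lost at Day10 against Day0. In the SIBLING window the gained strips end at 135.0 kb and the lost ones begin at 140.9 kb, a split of the calls by rank and not of the folds.

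The Alpl window held the gained region with the highest Day10 fold. At chr4:137469024-137469524 the fold was 6.4 in both Day0 libraries, 8.3 in both Day3 libraries, but 33.6 and 33.9 at Day10, a ratio of 5.29 for Day10 over Day0. The pileup there was 69 and 72 reads at Day10, with intervals of 53.7 to 87.3 and 56.3 to 90.7, against 10 reads in each Day0 library, with an interval of 4.8 to 18.4. The 2 other gained regions of this window were listed at Day10 alone. At chr4:137425298-137425798 the Day10 fold was 23.5 and 22.8, and at chr4:137551679-137552179 it was 19.7 and 18.1. The lost region, chr4:137431813-137432313, had Day0 folds of 27.4 and 23.1 and Day3 folds of 11.1 and 8.3, and no listed peak at Day10. It lay between the gained region at 25.5 kb and a region at 34.8 kb, chr4:137434502-137435002, whose fold was 13.4 and 12.1 in the libraries of Day0, 14.5 and 15.6 in those of Day3, and 24.5 and 21.4 in those of Day10.

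In the Sp7 window, the gained and the lost region were neighbours, 64.4 and 61.8 kb from the lower end. The gained one, chr15:102279138-102279638, was not listed at Day0, had a fold of 6.7 and 4.4 at Day3, and of 22.1 and 21.8 at Day10. The lost one, chr15:102276587-102277087, had a Day0 fold of 29.7 and 28.9, which compared with 8.9 in both libraries at Day3 and with 10.1 and 9.3 at Day10. Its Day10 pileup of 20 and 19 reads compared with 50 and 49 at Day0, whose intervals were 37.1 to 65.9 and 36.3 to 64.8. Its whole fall in fold was thus present at Day3, where the fold was slightly below that of Day10. Its Day3 ranks of 81446 and 82213 still kept it out of the Day3 call.

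**Figure D3:**
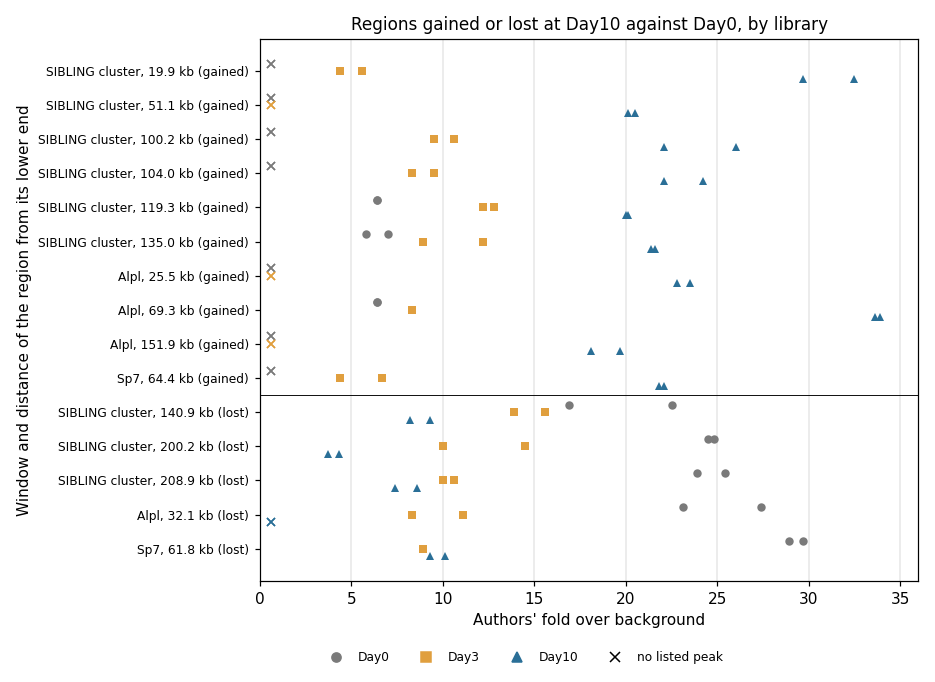
The authors' fold over background (horizontal axis) is shown per library for the 10 gained and 5 lost regions of Day10 against Day0, named by window and by kb from its lower end; crosses near 0 stand for no listed peak. In each row the Day10 symbols lie apart from the Day0 symbols, which the rank limits fixed in advance. In 3 gained rows both Day3 and Day0 have no listed peak.

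Day3 was compared with Day0 for early change. No member region was gained, where 0.543% of all regions were, and none was lost, where 0.513% were. There were 38 kept regions, where 45.6% of all regions were kept. Without a gap between the rank limits, 6 regions were gained, where 7.99% of all regions were, and 5 lost, where 7.65% were. When the lowest fold of one day had to be 2 times the highest of the other, 0 were gained, where 1.09% of all regions were, and 3 lost, where 3.32% were. These counts come from rules and not from a test. Day10 was compared with Day3 for late change. Then 5 of the 92 regions were gained, where 7.72% of all regions were, and 0 were lost, where 3.16% were, while 34 were kept, where 37.9% were. The 5 gained regions were also gained against Day0: those at 19.9 and 51.1 kb in the SIBLING window, at 25.5 and 151.9 kb at Alpl, and at 64.4 kb at Sp7. Without Day10 replicate 1, the gained count was 9 (9.78%), where 9.13% of all regions were gained. The other 5 regions gained against Day0 ranked between 57406 and 84282 in the Day3 libraries and so fell between the limits. The comparisons share libraries, so their calls are not independent.

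Beyond these calls, many member regions had different folds on each day. In 43 regions each Day10 library was above each Day0 library, where 36.4% of all regions were, and in 34 each was below, where 51.3% were. With each library's fold divided by its median over regions strong in all 6 libraries, 54 were above, where 47.8% of all regions were, and 26 below, where 38.2% were. At Day3 against Day0, 34 were above, where 27.1% of all regions were, and 37 were below, where 47.6% were. With the fold divided in this way, 40 were above, where 37.4% of all regions were, and 31 below, where 35.4% were. By rank, 42 were above, where 39.4% of all regions were, and 27 below, where 30.5% were. Which direction held more regions at Day3 thus depended on the scale, in the windows and over all regions. At Day10 against Day3, 52 were above, where 37.6% of all regions were, and 31 below, where 46.5% were.

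A stepwise order, with every Day3 library above every Day0 library and every Day10 library above both Day3 libraries, was found in 22 of the 92 regions, which is 23.9%. The same order was found in 11.9% of all regions, a difference given without a test. Some of these regions, such as chr5:104419651-104420151, entered the set through Day10 alone, the day on which this order needs a high fold. Entry through Day10 alone held for 22 of the 92 regions and for 19.9% of all regions. By window, 11 of 38 regions of the SIBLING window, 6 of 29 at Alpl and 5 of 25 at Sp7 had the upward order. With the divided fold there were 25, which is 27.2% against 16.1% of all regions, and by rank 21, which is 22.8% against 12.1%. The reverse order was found in 18 regions, where 26.4% of all regions had it, but in 9 with the divided fold, where 17.6% of all had it, and in 10 by rank, where 18.1% had it. A fold highest at Day3 was found in 10 regions, where 11.1% of all had it, and one lowest at Day3 in 18, where 13.7% had it. Of these 18, 10 lay in the Alpl window, where chr4:137462761-137463261 and chr4:137463492-137463992 carry the value of the same peak. With the divided fold 18 were lowest at Day3, 9 of them at Alpl, where 12.6% of all regions were. By rank there were 13, 6 of them at Alpl, where 7.52% of all regions were.

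Several stepwise regions reached high ranks at Day10 without being called gained, since their Day0 ranks lay within 100000. At chr15:102268540-102269040, in the Sp7 window, the fold was 15.7 and 14.4 in the libraries of Day0, 18.9 and 17.2 in those of Day3, and 39.3 and 35.8 in those of Day10, a ratio of 2.49. Its ranks were 54600 and 59730 in the libraries of Day0, 37747 and 42774 in those of Day3, and 3699 and 8478 in those of Day10. Also at Sp7, chr15:102309063-102309563 had a fold of 18.6 and 15.6 in the libraries of Day0, 28.9 and 28.4 in those of Day3, and 38.9 and 37.6 in those of Day10. This region had thus moved further by Day3 than the one before it. In the SIBLING window, chr5:104446944-104447444 had a fold of 12.8 and 12.1 in the libraries of Day0, 18.3 and 18.4 in those of Day3, and 34.5 and 32.5 in those of Day10, a ratio of 2.69. Another, chr5:104476263-104476763, had 18.1 and 19.6 in the libraries of Day0, 27.8 and 28.9 in those of Day3, and 31.7 and 33.5 in those of Day10. At Alpl, chr4:137477344-137477844 had 15.1 and 15.6 in the libraries of Day0, 16.7 and 16.1 in those of Day3, and 33.1 and 31.6 in those of Day10, so most of its difference lay after Day3.

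**Figure D4:**
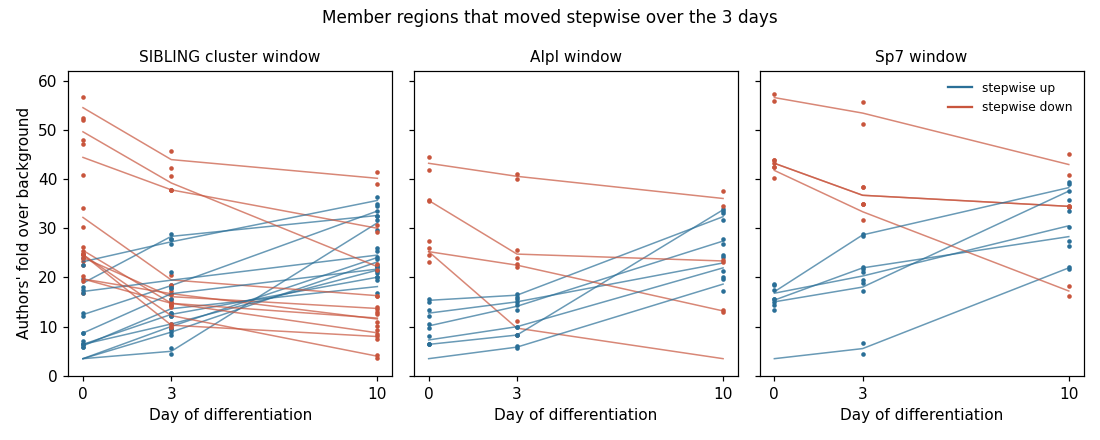
Lines join the mean of the 2 libraries' fold (vertical axis) at Day0, Day3 and Day10 (horizontal axis, day of differentiation) for the 22 regions that moved stepwise up and the 18 that moved stepwise down, and points are single libraries. Lines that start or end at 3.5 stand for days without a listed peak, set to the common floor; at Day10 the single values of the upward regions lie between 16.8 and 39.3.

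Most of the 5 best-ranked regions of each window lay under a top-50000 peak in every library. The exceptions were those at 69.3 and 77.6 kb in the Alpl window and at 53.8 and 94.3 kb in the Sp7 window, described above. In all, 41 of the 92 regions lay under a top-50000 peak in each of the 6 libraries, which is 44.6% against 39.7% of all regions. The best rank of any member belonged to chr15:102314158-102314658 in the Sp7 window, with a fold of 55.9 and 57.2 in the libraries of Day0, 51.2 and 55.6 in those of Day3, and 40.8 and 45.1 in those of Day10. At Day3 its summit ranked 979 and 403. In the SIBLING window the best rank was 892, at chr5:104528389-104528889, where the fold was 52.4 and 56.6 in the libraries of Day0, 45.6 and 42.3 in those of Day3, and 38.9 and 41.4 in those of Day10. The pileups of this region were 89 and 97 reads at Day0 and 80 and 88 at Day10. The background, which enters the divisor of the fold, was 0.72 and 0.73 at Day0 but 1.08 and 1.15 at Day10. The lower Day10 folds of such regions thus need not mean as large a fall in reads, and the parts of pileup and background were not tested. Next in that window, chr5:104555345-104555845 had 48.4 and 47.4 in the libraries of Day0, 47.8 and 46.7 in those of Day3, and 38.4 and 40.0 in those of Day10. At chr5:104594030-104594530 the fold was 36.1 and 37.0 in the libraries of Day0, 43.4 and 45.0 in those of Day3, and 37.9 and 34.9 in those of Day10, highest at Day3. The region chr5:104607177-104607677 was covered by a peak with a fold of 41.9 and 37.6 in the libraries of Day0, 43.4 and 41.7 in those of Day3, and 40.3 and 38.1 in those of Day10, whose summit lay in the next region at Day3.

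At Alpl, the region with the best rank was chr4:137476024-137476524, with a fold of 41.9 and 44.5 in the libraries of Day0, 41.1 and 40.0 in those of Day3, and 34.5 and 37.6 in those of Day10. Adjoining regions chr4:137462761-137463261 and chr4:137463492-137463992 were covered by 1 peak in each library, with a fold of 41.4 and 39.9 in the libraries of Day0, 27.8 and 23.9 in those of Day3, and 32.1 and 34.9 in those of Day10. Its summit lay in the first region at Day0 and Day3 and in the second at Day10, with a further summit in the second in Day0 replicate 1. At Sp7, chr15:102263796-102264296 had 42.5 and 43.9 in the libraries of Day0, 35.0 and 38.4 in those of Day3, and 34.5 and 34.4 in those of Day10. The fold of chr15:102271047-102271547 was 29.1 and 31.2 in the libraries of Day0, 33.4 and 33.9 in those of Day3, and 33.6 and 36.3 in those of Day10.

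The windows end by position and not by signal. At the lower end of the SIBLING window, the nearest peak inside had a fold of 4.7 and 5.8 in the libraries of Day0, 7.8 and 10.0 in those of Day3, and 16.8 and 3.3 in those of Day10. The nearest peak outside, about at 104399854, had 46.0 and 43.9 in the libraries of Day0, 37.3 and 36.7 in those of Day3, and 31.7 and 29.7 in those of Day10. At the 5 other ends of the windows, the fold of the nearest inside peak ranged from 3.3 to 55.6 over the libraries, and that of the nearest outside peak from 2.8 to 49.5. These are different peaks in different libraries and are not compared.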

How the data were processed

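Each library has its own narrowPeak list, and the authors did not pool replicates. Trim Galore and the build mm10 are named in the submitters' processing notes. The lists hold scaffold names of GRCm39 and are read as that build. The aligner, the peak caller and any Tn5 shift, not given in the sources used here, were not checked. The score column (deposited, from the -log10 q), the fold ratio and the -log10 p are the authors' values. Per the deposited values, the fold equals (pileup + 1) / (background + 1), with pileups whole within 0.01 in 100.0% of peaks and the members' -log10 p matched by the Poisson tail within 0.0005.

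Chromosomes 1 to 19, X and Y were used. Peaks were ranked by -log10 p, then fold, then position. Levels are the authors' fold of the best peak overlapping a region by at least 1 base. For orders between days, a library without a listed peak was set to a common floor of 3.5. No test was computed, since the rule gives calls from 2 libraries a day. Regions named are all gained or lost ones, the 5 of best rank per window and the window ends, and the stepwise regions described were chosen after their values were seen. The members and lists were chosen with earlier results of these data known. The planned counts for other pathway genes, cell type markers and motifs in regions need an annotation or genome of GRCm39 and were not run, so the label of the cells was not checked. Analyses used Python 3.11.15, pandas 2.3.3 and scipy 1.17.1.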

Additional observations from a re-analysis of the deposited data

Results flagged for a closer look

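In 9 of the 92 regions, 9.78%, each Day3 library moved one way and each Day10 library the other way against both Day0 libraries, by fold and by rank. Over all regions 5.68% did so. The differences were not tested. Values are ratios of mean fold over Day0. Higher at Day3 and lower at Day10 were the regions around chr5:104487987 (1.10 at Day3, 0.76 at Day10), chr5:104639585 (1.14 and 0.78) and chr4:137511277 (1.17 and 0.77). In this order, their Day10 pileups were 43 and 38 reads, 32 and 31, and 31 and 34. At Day0 the pileups were 41 and 46, 34 and 32, and 34 and 35. These are near the Day10 ones, and the background was higher at Day10, so the lower folds need not mean fewer reads. Lower at Day3 and higher at Day10 were those around chr5:104551414 (0.69 and 1.22), chr4:137430609 (0.52 and 1.61), chr4:137521701 (0.60 and 1.97), chr15:102267475 (0.75 and 1.21) and chr15:102280554 (0.56 and 1.13). The region around chr15:102303851 had no listed peak at Day3 and a ratio of 1.35 at Day10.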

How the results depend on the processing

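No paired analysis was possible because the results come from rank rules on peak lists and from no test. Counts of member regions are given as gained and lost. Each count is followed by the share of all regions with that call. At Day3 against Day0, the summit rule alone gave 1 (1.17%) and 5 (1.72%), the overlap rule alone 0 (0.606%) and 0 (0.529%), the 30000 strongest 0 (0.028%) and 0 (0.00762%), no gap 6 (7.99%) and 5 (7.65%), the fold rule 0 (1.09%) and 3 (3.32%), and scaled folds 0 (1.51%) and 2 (2.24%). At Day10 against Day0, the summit rule alone gave 11 (12.0%) and 9 (10.0%), the overlap rule alone 10 (11.2%) and 5 (8.08%), the 30000 strongest 2 (4.06%) and 1 (2.21%), no gap 19 (18.1%) and 12 (17.5%), the fold rule 17 (14.7%) and 6 (11.8%), and scaled folds 17 (16.3%) and 4 (9.26%). At Day10 against Day3, the summit rule alone gave 10 (9.08%) and 5 (4.59%), the overlap rule alone 5 (8.05%) and 0 (3.29%), the 30000 strongest 1 (2.59%) and 0 (0.427%), no gap 14 (15.0%) and 8 (14.1%), the fold rule 10 (12.8%) and 0 (3.22%), and scaled folds 11 (13.5%) and 0 (2.74%). With the 30000 strongest, 17 regions were kept at Day3 against Day0 (27.0% of all), 14 at Day10 against Day0 (21.0%) and 16 at Day10 against Day3 (22.8%). Of the 10 gained regions at Day10 against Day0, 10 were gained under both fold rules, and of the 5 lost ones 4 were lost. The result for gained regions was fixed by the rank limits and is no support for the calls. Rank 50000 at Day10 stood at a fold of 17.8 and 17.7, and rank 100000 at Day0 at 7.57 and 7.51.

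Leaving out each library in turn gave 0 to 0 gained, 0 to 0 lost and 39 to 41 kept at Day3 against Day0, 10 to 14, 5 to 6 and 31 to 33 at Day10 against Day0, and 5 to 9, 0 to 1 and 34 to 37 at Day10 against Day3. Without Day3 replicate 2 the last had 1 lost region (3.99% of all), and without Day10 replicate 1 it had 9 gained (9.13%). Leaving out a library removes a condition, which cannot lower a count. The stepwise down count of 18 (26.4% of all) was 9 with scaled folds (17.6%) and 10 by rank (18.1%). The Day10 to Day0 ratio of member peaks was 1.53 at a -log10 q of 5 or more, 1.48 at 10 or more, 1.15 in the 50000 strongest and 1.11 in the 100000 strongest. The Day3 to Day0 ratio was 1.0 over the lists and 0.834, 0.867, 0.939 and 0.929 in these settings. With an overlap of much of the shorter peak (a share of 0.5 or more), 29.4% and 29.3% of the Day10 member peaks were overlapped in both Day0 libraries, and 86.1% and 87.6% of the Day0 member peaks in both Day10 libraries. The rank measure and the same overlap for regions, which left the gained and lost counts at their values, were chosen after seeing the data. Pileups near 10 reads limit what the weak regions can show.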

Other observations

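The 100 kb below the SIBLING window, chr5:104300000-104399999, were described apart, since the cluster may reach into them. They held 8 regions, of which 1 was gained at Day10 against Day0, where 10.7% of all regions were, and 0 were lost, where 7.99% were. The gained region, chr5:104383113-104383613, was not listed at Day0, had a fold of 6.1 in both Day3 libraries, and of 19.2 and 19.5 at Day10. The region chr5:104358679-104359179 had a fold of 40.8 and 41.0 in the libraries of Day0, 29.5 and 33.9 in those of Day3, and 10.6 and 10.7 in those of Day10, and chr5:104353770-104354270 had 14.6 and 17.9 in the libraries of Day0, 11.7 and 8.3 in those of Day3, and 4.8 and 4.6 in those of Day10. By contrast, chr5:104388322-104388822 had 26.2 and 27.7 in the libraries of Day0, 36.1 and 34.5 in those of Day3, and 40.3 and 40.0 in those of Day10. In these 3 regions the days did not overlap, an order that 26.4% of all regions had downward and 11.9% had upward. The strip was chosen after the data were seen and no gene is assigned to it.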
